A study of Mus musculus with 10 samples.

Results

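The cells described here are those of the distal convoluted tubule (DCT), the short nephron segment that follows the thick ascending limb, in a single-cell series of kidney cortex. The mice were 4 weeks old. Cells were chosen by their transcripts: a member held at least 2 unique molecular identifiers (UMIs, each standing for 1 captured transcript) of Slc12a3 and none of Slc12a1, Aqp2, Ptprc and Pecam1. The excluded genes mark the thick limb, the principal cells, leukocytes and endothelium. Of 52797 cells with at least 500 detected genes and at most 50% of UMIs from the mitochondrial genome, 1517 (2.87%) were members. The series has 10 Drop-seq libraries, a method that catches the RNA of single cells on beads with a barcode each. There was 1 library of normal kidney, 1 each from days 1, 2 and 4 of the injury course, and 2 each from days 7, 11 and 14. The labels name the injured groups by their day and give no kind of injury, strain, sex or animal, so every comparison with normal kidney rests on a single library, and p-values measure a spread between libraries that may be technical. Members numbered 254 in the control and 130, 57 and 137 on days 1, 2 and 4. The libraries of the replicated days held 32 and 75 (day 7), 146 and 129 (day 11) and 335 and 222 (day 14).

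Slc12a3 encodes the thiazide-sensitive sodium-chloride cotransporter NCC, which reabsorbs salt in this segment and is switched on by phosphorylation through the WNK kinases and SPAK. The DCT also sets the final amount of magnesium in urine, through the channel TRPM6, and its cells are rich in mitochondria. Its early part holds the calcium-binding protein parvalbumin (Pvalb), and its late part shares calbindin (Calb1), calcium transport and aldosterone response with the connecting tubule that follows.

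The gene that chose the cells and a pair of genes whose transcripts nearly disappeared from them on day 7, Pvalb and Egf, are shown by the 250 bases before a start (RefSeq, GRCm38.p6, each written 5′ to 3′ on the gene's own strand). For Pvalb and for Egf 2 starts were listed, and the window of the first is shown. The 6 bases in capitals in the Slc12a3 sequence, TATAAA, stand 32 bases before its first base.
Slc12a3, chr8:94328958-94329207, plus strand: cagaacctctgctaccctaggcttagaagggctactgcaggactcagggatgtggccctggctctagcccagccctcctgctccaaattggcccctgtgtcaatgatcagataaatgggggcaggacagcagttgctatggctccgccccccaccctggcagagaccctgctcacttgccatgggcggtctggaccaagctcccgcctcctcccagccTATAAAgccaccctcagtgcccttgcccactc
Pvalb, chr15:78206401-78206650, minus strand: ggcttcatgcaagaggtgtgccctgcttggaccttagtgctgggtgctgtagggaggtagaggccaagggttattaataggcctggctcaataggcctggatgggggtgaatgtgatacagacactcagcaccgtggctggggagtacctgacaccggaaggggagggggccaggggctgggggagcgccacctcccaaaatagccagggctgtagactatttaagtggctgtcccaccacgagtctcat
Egf, chr3:129755323-129755572, minus strand: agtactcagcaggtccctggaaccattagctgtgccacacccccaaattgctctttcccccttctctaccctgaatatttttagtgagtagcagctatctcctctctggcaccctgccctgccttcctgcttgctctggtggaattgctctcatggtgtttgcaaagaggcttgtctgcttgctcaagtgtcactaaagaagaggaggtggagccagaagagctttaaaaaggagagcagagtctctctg
Searched on both strands were the TATA box TATAAA and the AP-1 site TGANTCA. They occur in 12.4%, 6.75% and 6.43% of 32851 such upstream sequences. No other match was found in the sequences shown, which says only that the letters are not in these windows. In the GENCODE annotation of GRCm38, Slc12a3 lies at chr8:94329201-94366214 on the plus strand, Pvalb at chr15:78191114-78206400 on the minus strand and Egf at chr3:129677565-129755316 on the minus strand. Egf overlaps Gm24515 on its own strand and Gm42697, Gm42650 and 6330410L21Rik on the other, and the strand setting of the authors' counting is not given in the sources used here, so reads of these genes may not be told apart from those of Egf.

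Members could be recognised as DCT cells by genes the rule did not use in the control and on days 11 and 14, and much less so in between. Parvalbumin transcripts were found in 97.6% of the 254 control members, in 86.3% and 92.2% of the day 11 members and in 89.6% and 91.9% of the day 14 members. On days 1, 2 and 4 the shares were 10% (13 of 130), 5.26% and 28.5%, and in the day 7 libraries they were 6.25% and 14.7%. Calb1 was found in 89.4% of control members, in 24.6%, 42.1% and 41.6% on days 1, 2 and 4, in 31.2% and 24.0% on day 7, in 66.4% and 72.1% on day 11, and in 83.6% and 82.9% on day 14. For both genes the day 7 libraries lay below both day 11 and both day 14 libraries. From days 1 to 7 the name DCT therefore rests on Slc12a3 for most members, as far as these markers go, and the cells are called members below.

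**Figure D1:**
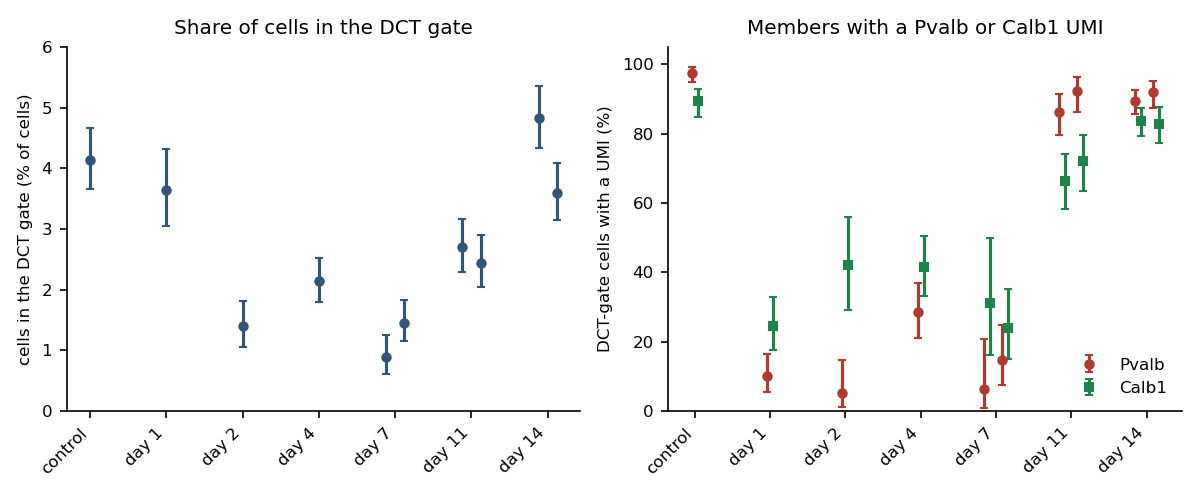
Left, members as a percentage of all cells in each library, with exact 95% binomial intervals. Right, the percentage of members with at least 1 UMI of Pvalb (circles) or Calb1 (squares), with the same intervals, by day of the injury course. The Pvalb share was 97.6% in the control, 5.26% on day 2 and 89.6% and 91.9% on day 14.

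Days 7, 11 and 14 have replicates. The mean share with a Pvalb UMI was 10.5% ± 5.95 (SD, n = 2) on day 7, 89.3% ± 4.20 (SD, n = 2) on day 11 and 90.7% ± 1.65 (SD, n = 2) on day 14. For Calb1 the means were 27.6% ± 5.13, 69.3% ± 4.00 and 83.2% ± 0.494 (SD, n = 2 each). An exact two-sided permutation test between any 2 of these days cannot go below p = 0.33, which both genes reached for day 11 and for day 14 against day 7, and Calb1 for day 14 against day 11. For Pvalb, day 14 against day 11 gave an exact permutation p = 1. For members with at least 1000 UMIs, the share expected after thinning each to 1000 UMIs was also computed, and shallower members were left out. The Pvalb means were then 6.38%, 84.2% and 77.9% on days 7, 11 and 14, and the Calb1 means 12.8%, 61.6% and 68.9%.

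Free RNA in droplets gives stray UMIs, so the same shares were read in cells with no Slc12a3 and none of the 4 excluded genes. There a Calb1 UMI was found in 4.16% to 9.27% of cells, below the share in members of the same library throughout. A Pvalb UMI was found in 5.55% of 3192 control cells (median 2294.5 UMIs per cell) and in 0.0492% to 3.71% of cells of the other libraries. The median depth of members ran from 2110.5 to 5148.5 UMIs per library. In every library the share in members was above that in its own cells without Slc12a3. On day 2 it was 5.26% of 57 members against 0.0492% of 2031 such cells, and the 3 day 2 members with Pvalb had a median of 23106 UMIs. Free Slc12a3 was low in kind: cells with Ptprc or Pecam1 and without Umod, Slc12a1 or Epcam held 5.30 to 40.2 Slc12a3 CPM (UMIs per 1e6 UMIs of those cells), against 921 to 2866 in members, and 0% to 1.70% of them (median 1149 to 1848 UMIs) had the 2 UMIs of the rule. Among all cells with a Ptprc UMI that share was 0.877% to 3.64%, and on days 2 and 4 and in day 7 replicate 1, at 3.56%, 2.59% and 1.60%, it was as large as or larger than the share of members.

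Around the threshold of 2 UMIs, the share of cells with Pvalb stepped up in the control and on day 14 and was low on both sides of it on days 1 and 4. In the control, 23.1% of 104 cells with 1 Slc12a3 UMI held Pvalb, against 81.0% of 21 with 2 and 95.2% of 21 with 3. In day 14 replicate 1 the values were 10.9% of 193 and 81.4% of 43 for 1 and 2 UMIs. On day 1 they were 4.62% of 130 and 2.27% of 44, and on day 4, 4.13% of 121 and 18.2% of 33. Tmem52b, a membrane protein gene of the distal nephron, was more often found at 2 UMIs than at 1 in all 10 libraries, for example in 23.1% and 71.4% of control cells with 1 and 2 UMIs, in 50% and 68.2% on day 1, and in 57.0% and 100% on day 4.

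Looked at the other way, the gate held 54.3% of the 446 control cells with at least 2 Pvalb UMIs. Of the rest, 107 had fewer than 2 Slc12a3 UMIs and 97 held an excluded gene. The gate took 70.6% and 72.4% of such cells on day 11 and 78.6% and 71.1% on day 14. Markers of other tubule cells were also counted in members. Umod, the thick limb's uromodulin, averaged 1285 CPM in members and 6682 in thick limb cells, after scaling between libraries by the TMM method. Klk1, the connecting tubule's kallikrein, had a UMI in 62.3% to 89.5% of members, and in 17.6% to 53.2% of the cells without Slc12a3 and the excluded genes (median 1146 to 2294.5 UMIs). The 14 proximal tubule markers summed to 258 and 186 CPM of member UMIs in the day 7 libraries and to 1272 to 8428 CPM in the other 8 libraries. Macrophage markers summed to 9.21 CPM in the control, with C1qa, C1qb, C1qc, Lyz2, Tyrobp and Cd68 at 0, to 986 and 305 CPM on day 7, and to 25.3 to 247 CPM in the others. Across libraries, 62 barcodes occurred among the cells of more than 1 library, none of them as a member in both, and 2 member barcodes were also a cell of another library. Counts over genes in the 2 libraries of a day differed by 3.92, 5.26 and 2.10 times the sampling noise (chi-square over its degrees of freedom) on days 7, 11 and 14, which says only that neither is a copy of the other. A doublet caller marked at most 0.111% of a library, so its call was not used, and 70 members lay in the highest 5% of its scores.

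Members made up 4.14% of control cells (exact 95% binomial interval 3.66 to 4.67). The share was 3.64% (3.05 to 4.31) on day 1, 1.39% (1.06 to 1.80) on day 2 and 2.13% (1.80 to 2.52) on day 4. It was 0.884% and 1.46% in the day 7 libraries, with a mean of 1.17% ± 0.404 (SD, n = 2). On day 11 the mean was 2.57% ± 0.182, and on day 14 it was 4.21% ± 0.874 (SD, n = 2 each), with 1 day 14 library above the control and 1 below. At a threshold of 1 Slc12a3 UMI day 1 (7.29%) and both day 14 libraries (7.61% and 6.13%) lay above the control (5.84%), and at 5 UMIs day 1 (1.15%) lay below it (3.18%). With cells limited to 25% mitochondrial UMIs the control was at 1.67%, and days 1 (3.15%), 4 (1.85%) and 11 (a mean of 1.80%) turned from below it to above it. The day 14 libraries were then at 2.34% and 1.54%, again on either side of the control. These intervals cover counting error within a library only. Slc12a3 chose the cells, so the shares are a description: fewer DCT cells and fewer Slc12a3 transcripts per DCT cell cannot be told apart.

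Slc12a3 itself set the gate at 2 UMIs, so its level within members is given as a description only. The median member held 5148.5 UMIs in all in the control, 2456.5 on day 1 and 2835.5 and 2503 on day 7. Counts per cell can depend on that depth and were not corrected for it. The median number of Slc12a3 UMIs per member was 8.5 in the control, 3 on day 1, 5 on days 2 and 4, 3 and 4 on day 7, 6 in both day 11 libraries and 8 in both day 14 libraries. Across libraries these medians did not rank as depth did. Day 11 had the shallowest members (2110.5 UMIs in replicate 1, 2130 in replicate 2) but a higher Slc12a3 median than day 1 or day 7. The day 14 libraries, at depths of 2693 and 3098 UMIs, came close to the control, whereas day 2, with 4918 UMIs, lay below them. The part of depth in these counts was not tested. Members at exactly 2 UMIs numbered 21 of 254 in the control and 44 of 130 on day 1. The share with 5 or more was 76.8% in the control and 31.5% on day 1. It was 37.5% and 46.7% in the day 7 libraries and 74.9% and 75.2% in those of day 14. Summed over members and scaled between libraries by the TMM method (scaled CPM), Slc12a3 was 2349 in the control, 1266, 819 and 1481 on days 1, 2 and 4, then 938 and 1144 (day 7), 2817 and 2813 (day 11) and 3505 and 3324 (day 14). Levels below are on this scale, except sums over marker lists and sums of members with and without Pvalb, which are CPM without this scaling.

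Across genes, each library's member UMIs were summed and days 7, 11 and 14 were compared with the control and with each other by edgeR's quasi-likelihood test, with 8400 genes tested, a Benjamini-Hochberg adjusted p below 0.05 as the call, and log2 changes given as value ± SE. On day 7 against control 1312 genes (15.6%) were called, 568 higher and 744 lower, and DESeq2's Wald test called 447. The number was 404 (4.81%) on day 11 and 219 (2.61%) on day 14. On day 11 it was 229 and 74 without day 11 replicate 1 and 2 and 679 and 692 without day 7 replicate 1 and 2, and DESeq2's Wald test gave 43. On day 14 it was 87 and 86 without day 14 replicate 1 and 2 and 344 and 352 without day 7 replicate 1 and 2, and DESeq2's Wald test gave 16. Between replicated days the numbers were 1751 genes (20.8%) for day 11 against day 7, 1683 (20%) for day 14 against day 7, and 367 (4.37%) for day 14 against day 11. DESeq2's Wald test gave 745, 636 and 127. By edgeR they were 1051 for day 11 against day 7 without day 11 replicate 2 and 1086 for day 14 against day 7 without day 14 replicate 1. Leaving out any 1 library of days 7, 11 and 14 moved the last number, which ran from 51 (without day 11 replicate 2) to 567 (without day 7 replicate 2). The median log2 change over all genes lay between -0.07 and 0.08 in the 6 comparisons. Days 1, 2 and 4 have 1 library each and were given no test. The spread of the control, which has no replicate, was taken to be that of days 7, 11 and 14.

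Several genes of salt and magnesium transport, Pvalb and Egf among them, were lower on day 7 than in the control and rose again by day 11. Of the 14 tested genes of that list, 7 fell on day 7 and none rose, where 8.86% of all genes fell, with a median of -0.90 beside 0.04 over all genes. Parvalbumin, a buffer of calcium in the early DCT, was 4173 in the control, 32.4, 12.5 and 562 on days 1, 2 and 4, then 18.9 and 146 (day 7), 4176 and 3519 (day 11) and 2625 and 2489 (day 14) scaled CPM. All 5 libraries of days 1 to 7 lay below the lowest of the other 5. Its log2 change was -5.46 ± 0.41, adjusted p = 1.8e-09 on day 7, and it rose again by 5.34 from day 7 to day 11 (adjusted p = 1.6e-09). Egf, a peptide that stimulates TRPM6 and that distal tubule cells shed into urine, was 5297 in the control, 36.7, 60.6 and 675 on days 1, 2 and 4, then 23.7 and 132 (day 7), 2018 and 1518 (day 11) and 3448 and 3905 (day 14). It had the largest change of the list on day 7 and fell by 5.91 on the log2 scale (SE 0.40, adjusted p = 2.3e-10). On day 11 Pvalb was no longer called different from control (-0.12 ± 0.36, adjusted p = 0.89). Egf was still lower on day 11, at -1.58 ± 0.33, adjusted p = 0.0063, and was higher on day 14 than on day 11 by 1.06 ± 0.28, adjusted p = 0.031. Whether the day 11 lag of Egf exceeds that of Pvalb was not tested, and without day 11 replicate 2 the Egf value was -1.39 (adjusted p = 0.13) on day 11 against control and 0.86 (adjusted p = 0.38) on day 14 against day 11.

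Trpm6, the magnesium channel of the luminal membrane, was 189.7 in the control, 36.7, 28.5 and 43.6 on days 1, 2 and 4, then 47.4 and 32.3 (day 7), 109 and 79.5 (day 11) and 141 and 122 (day 14) scaled CPM. The days 1 to 7 libraries did not overlap the others. It was -2.32 ± 0.33, adjusted p = 1.7e-05 on day 7, -1.01 ± 0.27, adjusted p = 0.029 on day 11 and -0.52 ± 0.24, adjusted p = 0.3 on day 14. The day 11 call was lost without day 11 replicate 2 (-0.79, adjusted p = 0.29). Cnnm2, a basolateral protein needed for magnesium handling, stood at 122 in the control and at 14.2 and 32.3 on day 7, a change of -2.24 ± 0.37, adjusted p = 9.3e-05. Potassium channel genes of both membranes fell too: Kcnj10, the basolateral channel that sets the cell's voltage, changed by -1.06 ± 0.27, adjusted p = 0.0068, and Kcnj1, the luminal channel ROMK, by -1.42 ± 0.26, adjusted p = 0.00032. Fxyd2, a regulatory subunit of the sodium pump, lay near the threshold, at 7429 in the control and 4263 and 4685 on day 7 (-0.73 ± 0.29, adjusted p = 0.088). It was not called with both day 7 libraries, but was without day 7 replicate 1 (-0.66, adjusted p = 0.015) and without replicate 2 (-0.80, adjusted p = 0.0033). From day 7 to day 11, 9 of the 14 rose and none fell, where 12% of all genes rose (8.87% fell), and from day 7 to day 14, 11 rose (7 without day 14 replicate 1), where 12.3% did (7.75% fell). On day 11 Egf and Trpm6 were lower than control, where 2.92% of all genes fell, and on day 14 none of the 14 was called, where 2.61% of all genes were. Pvalb, at -0.71 ± 0.35, adjusted p = 0.34 on day 14, was called lower than control when day 7 replicate 1 or 2 was left out of the fit (-0.71 and -0.71, adjusted p = 0.016 and 0.014).

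**Figure D2:**
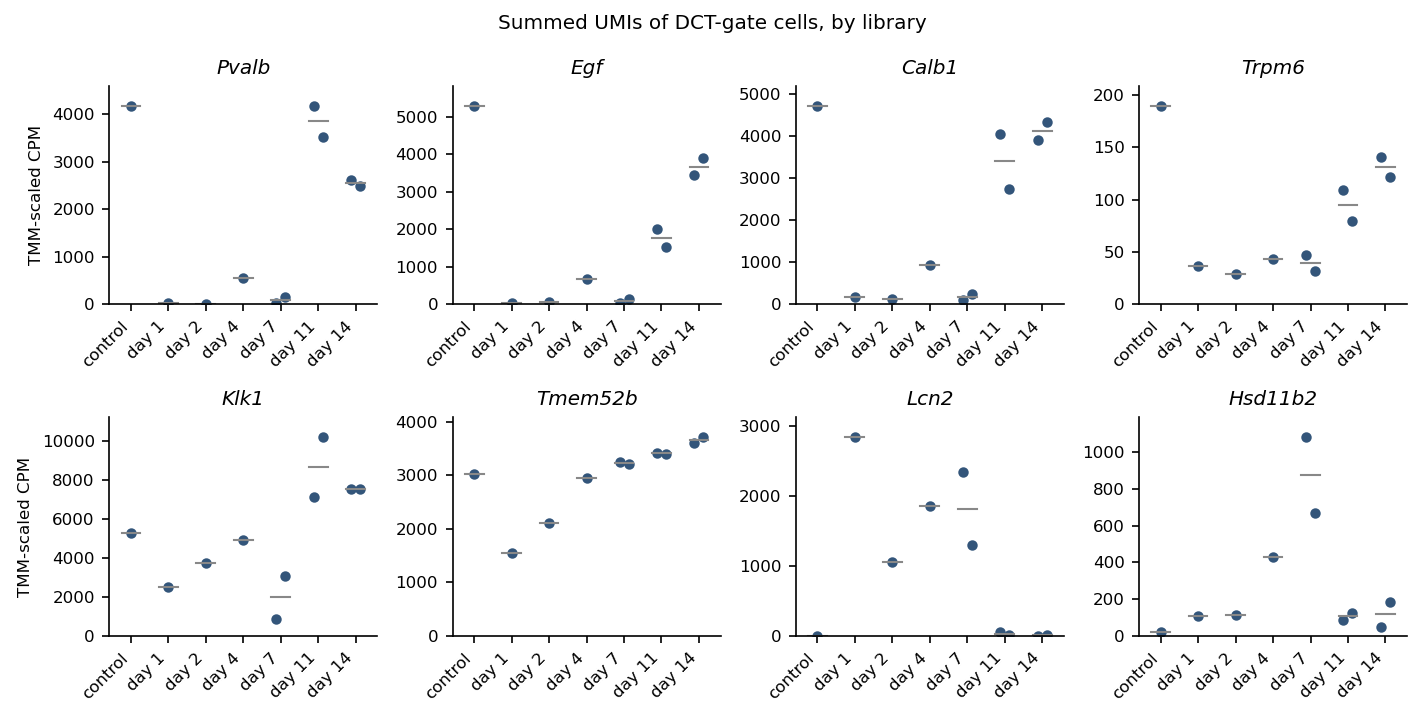
Scaled CPM of 8 genes in the summed UMIs of members, 1 point per library and a grey line at each day's mean, on linear axes that start at 0. Pvalb, Egf, Calb1 and Trpm6 were low on days 1 to 7, Lcn2 was high in that period, Hsd11b2 was highest in the day 7 libraries, and Tmem52b lay between 1543 and 3710.3.

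A pair of other genes of the distal nephron was not called lower on day 7. Tmem52b, chosen after its values were seen, was 3032 in the control, 1543, 2113 and 2951 on days 1, 2 and 4, then 3245 and 3211 (day 7), 3426 and 3397 (day 11) and 3608 and 3710.3 (day 14). Its change on day 7 was 0.09 ± 0.27, adjusted p = 0.87. Sostdc1, a secreted antagonist of WNT and BMP signals, also chosen after its values were seen, stood at 516 in the control and at 526 and 635 on day 7 (0.18 ± 0.26, adjusted p = 0.71). It was higher on day 14, at 953 and 1181 (1.05 ± 0.26, adjusted p = 0.029). Leaving out day 14 replicate 1, day 14 replicate 2 or day 1 ended this call (adjusted p = 0.10, 0.41 and 0.059). In contrast, Klk1, the connecting tubule protease, was called lower, at -1.41 ± 0.41, adjusted p = 0.018, with the day 7 libraries far apart at 876 and 3055 against 5264 in the control and 2526 to 4916 on days 1 to 4.

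Some of the genes that switch NCC on or respond to aldosterone were lower on day 7. Of 17 tested, 6 fell and 1 rose, with a median of -0.83, where 8.86% of all genes fell and 6.76% rose, so the single gene that rose is near the share of all genes. Wnk1, whose short kidney form is made in the DCT, was 2714 in the control, 330.1, 362 and 718 on days 1, 2 and 4, then 407 and 486 (day 7), 1984 and 1672 (day 11) and 2418 and 2143 (day 14). It changed by -2.59 ± 0.26, adjusted p = 1.2e-07 on day 7. The 3′-end UMIs do not separate that form from the full-length one. Wnk4, the kinase that activates NCC through SPAK, stood at 305 in the control and at 128 and 127 on day 7 (-1.26 ± 0.28, adjusted p = 0.0023). Klhl3, the ubiquitin ligase adaptor that removes WNK kinases, fell too (-2.18 ± 0.33, adjusted p = 4.3e-05), and it rose from day 11 to day 14 by 1.23 (adjusted p = 0.0028; 1.16 and 0.077 without day 11 replicate 2). Ppp1r1a, the phosphatase inhibitor 1 that keeps NCC phosphorylated, went from 902 to 109 and 204 (-2.46 ± 0.28, adjusted p = 9.7e-07). Stk39, which encodes SPAK, and Tsc22d3, a steroid-induced gene, were also called lower, at -1.08 and -2.46, but not without day 7 replicate 2, at -0.70 (adjusted p = 0.26) and -1.94 (adjusted p = 0.17). Oxsr1, Sgk1, the mineralocorticoid receptor Nr3c2 and Nedd4l were not called. With DESeq2's Wald test 3 of the 17 fell. On day 14 none was lower than control, where 1.19% of all genes were, and Hsd11b2 was higher.

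Hsd11b2, the enzyme that inactivates glucocorticoids and so leaves the mineralocorticoid receptor to aldosterone, went the other way. It was 19.2 in the control, 110.0, 116 and 428 on days 1, 2 and 4, then 1080.0 and 670.0 (day 7), 87 and 127 (day 11) and 49.3 and 183 (day 14) scaled CPM, lowest in the control and highest in the 2 day 7 libraries. The change was 5.48 ± 0.56, adjusted p = 1.8e-07 on day 7, 2.47 ± 0.58, adjusted p = 0.013 on day 11 and 2.54 ± 0.55, adjusted p = 0.011 on day 14. The later calls each rest on 1 library: 2.17 (adjusted p = 0.15) on day 11 without day 11 replicate 2, and 1.35 (adjusted p = 0.24) on day 14 without day 14 replicate 2. With cells that also lacked Lrp2, Slc34a1, Umod, C1qa and C1qb neither was called: the day 11 value was 0.042 (adjusted p = 0.98) and the day 14 value turned to -0.30 (adjusted p = 0.90). Hsd11b2 lies at chr8:105518755-105523988 on the plus strand of GRCm38 and overlaps no other annotated gene. Principal cells hold this gene at a high level (a mean of 6679 scaled CPM in the principal cell gate, where members had 310.4). The markers of principal cells were also highest on day 7 as a sum, but some of them had no UMI in 1 or both day 7 libraries. Aqp2 had to be absent by the rule. The 6 others with a row in the tables summed to 108 CPM in control members and to 303 and 299 CPM in the day 7 libraries, the highest of the 10, against 2006 to 7880 CPM in the principal cell gate. Aqp3, Aqp4 and Avpr2 were at 0 in day 7 replicate 1, and Aqp4 and Fxyd4 in replicate 2. Of the 2 that could be tested in members, Scnn1b rose on day 7 and Gata3 was not called, and their median was 1.37. The part of principal cell transcripts in the rise of Hsd11b2 was not tested.

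Genes shared with the connecting tubule split. Of 15 tested, 8 fell on day 7 and 4 rose, where 8.86% of all genes fell and 6.76% rose, with a median of -0.95. Calbindin was 4712 in the control, 175, 134 and 927 on days 1, 2 and 4, then 99.5 and 248 (day 7), 4046 and 2746 (day 11) and 3912 and 4317 (day 14) scaled CPM and changed by -4.68 ± 0.35, adjusted p = 1.7e-09. S100g, the small calcium-binding protein calbindin-D9k, was 8203 in the control, 5210.3, 478 and 2686 on days 1, 2 and 4, then 204 and 1563 (day 7), 8039.6 and 7192 (day 11) and 19966 and 13224 (day 14). The day 1 library was at 5210.3, where Calb1 was already at 175, and both day 14 libraries were above the control. Slc8a1, the sodium-calcium exchanger, went from 88.8 to 14.2 and 14.9 (-2.58 ± 0.43, adjusted p = 0.00011). Kl, the FGF23 co-receptor klotho, went from 835 to 61.6 and 141 (-2.93 ± 0.30, adjusted p = 1.8e-07). Vdr, the vitamin D receptor, changed by -1.54 ± 0.28, adjusted p = 0.00038.

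The 4 that rose were Hsd11b2, Scnn1b and the calcium channels Trpv5 and Trpv6. Scnn1b, the beta subunit of the epithelial sodium channel, was 16.3 in the control, 38.8, 55.3 and 73.6 on days 1, 2 and 4, then 80.5 and 91.8 (day 7), 25.3 and 32.3 (day 11) and 57 and 45.1 (day 14). Each library of days 2 to 7 was at 55.3 or more. It was 2.41 ± 0.37, adjusted p = 5.2e-05 on day 7 and 1.65 ± 0.35, adjusted p = 0.0099 on day 14 (1.45, adjusted p = 0.14, without day 14 replicate 1). Scnn1a, the alpha subunit, was lower at -0.95 (adjusted p = 0.027; 0.078 without day 7 replicate 1). Trpv6 was at 8.53 in the control and at 66.3 and 24.8 on day 7 (2.24 ± 0.69, adjusted p = 0.027) and Trpv5 changed by 2.27 ± 0.66, adjusted p = 0.019. Neither was called without day 7 replicate 1 (1.52 and 1.90, adjusted p = 0.26 and 0.13), when 2 of the 15 rose. With DESeq2's Wald test 2 rose and 4 fell. On day 11 the list had 1 higher and 2 lower genes (1.89% and 2.92% of all genes), and no lower one without day 11 replicate 2. On day 14 it had 2 higher and none lower (1.42% and 1.19% of all genes).

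Among transcription factors of the distal nephron, 4 of 20 tested fell on day 7 and 2 rose, against 8.86% and 6.76% of all genes, with a median of 0.04, equal to that of all genes. Emx1, a homeobox factor found in the DCT, was 394 in the control, 36.7, 60.6 and 117 on days 1, 2 and 4, then 118 and 141 (day 7), 339.5 and 358 (day 11) and 369 and 396 (day 14). It changed by -1.57 ± 0.27, adjusted p = 0.00013 on day 7. Lhx1, a LIM homeobox factor of the developing nephron, went from 531 to 94.7 and 174 (-1.91 ± 0.29, adjusted p = 3.9e-05) and was still between 256 and 394 in the 4 later libraries without being called. Esrrb and Prox1 were called lower and Pax8 and Foxq1 higher, but each of these 4 calls was lost without day 7 replicate 2 (adjusted p = 0.061, 0.072, 0.088 and 0.10), and those of Esrrb and Prox1 without day 7 replicate 1 (adjusted p = 0.058 and 0.096). Tfap2b, an AP-2 factor of the distal tubule, was at 330 in the control and 441 and 390 on day 7 (0.32 ± 0.26, adjusted p = 0.47) and was not called.

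Several junction and adhesion genes rose: 6 of 11 were higher on day 7, where 6.76% of all genes were, with a median of 0.85. The 1 that was lower is near the 8.86% of all genes. Cldn4, a claudin of the collecting duct and of stressed epithelium, was 7.81 in the control, 328, 237 and 126 on days 1, 2 and 4, then 123 and 365 (day 7), 36.5 and 42.2 (day 11) and 9.66 and 21.2 (day 14). The day 7 change was 5.02 ± 0.53, adjusted p = 2.3e-07. Cldn3 rose from 11.4 to 85.3 and 122 (3.22 ± 0.43, adjusted p = 6.9e-06) and Cldn7 from 145 to 298 and 581 (1.64 ± 0.33, adjusted p = 0.00082). Cldn10, a claudin of the thick limb and proximal tubule, fell from 19.9 to 4.74 and 0 (-3.45 ± 1.01, adjusted p = 0.02). Cldn16, the thick limb's paracellular magnesium claudin and 1 of 6 tested thick limb markers, was 0.710 in the control, 4.32, 3.57 and 25.5 on days 1, 2 and 4, then 90 and 39.7 (day 7), 2.81 and 2.48 (day 11) and 6.76 and 1.33 (day 14). It rose by 6.06 on day 7 (adjusted p = 0.00014). Its control level is a single count, and the other 5 thick limb markers, Umod among them, were not called. With DESeq2's Wald test 3 of the 11 adhesion genes rose.

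Injury genes were high in the same cells. Of 38 tested, 31 rose on day 7 and none fell, where 6.76% of all genes rose and 8.86% fell, with a median of 3.62, or 2.75 with the 10 genes that were at 0 in a group set to their bound. Those 10 were at 0 in the control, so they could not fall, and they passed the filter through other libraries. Lcn2, Havcr1, Icam1, Krt19, Myc, Cxcl1 and Fgg of them are among the 31. Leaving out either day 7 library left 26 of the 38 called higher, and DESeq2's Wald test called 19. Lcn2, the iron-binding protein NGAL of damaged distal tubules (chr2:32384633-32388252, minus strand), was 0 in the control, 2835, 1058 and 1851 on days 1, 2 and 4, then 2335 and 1293 (day 7), 56.1 and 7.46 (day 11) and 0.966 and 11.9 (day 14) scaled CPM. No UMI was found in the 254 control members, which allows a share of members with a UMI of up to 1.44% (exact 95% interval), against 91.5% on day 1, 82.5% on day 2, 58.4% on day 4, and 84.4% and 52.0% on day 7. Against a floor of 3 counts in the control, Lcn2 was at least 851-fold higher on day 7 and at least 14.9-fold higher on day 11, where the call was lost without day 11 replicate 1 (adjusted p = 0.24). In cells without Slc12a3 and the excluded genes a Lcn2 UMI was found in 44.7% on day 1 and 37.0% and 19.9% on day 7, and in 0.0313% in the control (median 1146 to 2294.5 UMIs). The part of free RNA in the Lcn2 of members was not tested.

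Il1f6, an interleukin-36 cytokine, was 0 in the control, 263, 49.9 and 231 on days 1, 2 and 4, then 327 and 59.6 (day 7), 5.61 and 0 (day 11) and 3.86 and 0 (day 14) and at least 90.7-fold higher on day 7 than in the control. Havcr1, the proximal tubule injury marker KIM-1, was at 42.6 and 2.48 on day 7 and at least 10.6-fold higher, a call that was lost without day 7 replicate 1 (adjusted p = 0.27). The keratin Krt8 was 65.4 in the control, 1547, 934 and 368 on days 1, 2 and 4, then 692 and 712 (day 7), 143 and 124 (day 11) and 81.2 and 127 (day 14). Its day 7 change was 3.42 ± 0.32, adjusted p = 5.0e-08. Spp1, the secreted phosphoprotein osteopontin, was 2009.7 in the control, 32446, 21432 and 14947 on days 1, 2 and 4, then 12694 and 15201 (day 7), 3491 and 4145 (day 11) and 3524 and 3648 (day 14), a day 7 change of 2.80 ± 0.36, adjusted p = 4.4e-06. For both, every library of days 1 to 7 stood above every other library. Clu, the secreted chaperone clusterin, was 1009 in the control, 13870.4, 10117 and 7487 on days 1, 2 and 4, then 13495 and 7377 (day 7), 1585 and 1424 (day 11) and 936 and 2020.4 (day 14). It changed by 3.37 ± 0.45, adjusted p = 8.1e-06. The annexin Anxa2 was 2.13 in the control, 283, 130.2 and 134 on days 1, 2 and 4, then 166 and 161 (day 7), 39.3 and 24.9 (day 11) and 9.66 and 9.29 (day 14). It rose by 6.13 ± 0.48, adjusted p = 2.4e-09 on day 7 and was still higher on day 11 (3.77 ± 0.63, adjusted p = 0.00089). Edn1, the vasoconstrictor endothelin, went from 2.13 to 365 and 233 (6.96 ± 0.68, adjusted p = 7.8e-08), higher on day 7 than in the libraries of days 1 to 4, at 41.0 to 128. Adamts1, a secreted protease, went from 10.7 to 729 and 236 (5.41 ± 0.55, adjusted p = 1.4e-07). Cell cycle genes were rare: of 26, 13 passed the filter and Stmn1 alone was called, at 2.70 ± 0.82, adjusted p = 0.025 on day 7, a call that was lost without either day 7 library (adjusted p = 0.059 and 0.14). That is 1 of 13, near the 6.76% of all genes that rose, and the median of the 13 was 1.65. On day 14, 3 of the 13 (Mcm3, Mki67 and Top2a) were lower than on day 7, where 7.75% of all genes were. The call of Top2a was lost without day 7 replicate 2 (adjusted p = 0.23). That of Mcm3 was lost without any 1 of the libraries of days 11 and 14 (adjusted p from 0.061 to 0.26), and that of Mki67 without day 2, day 7 replicate 1, day 7 replicate 2 or day 14 replicate 1 (adjusted p from 0.059 to 0.27).

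**Figure D3:**
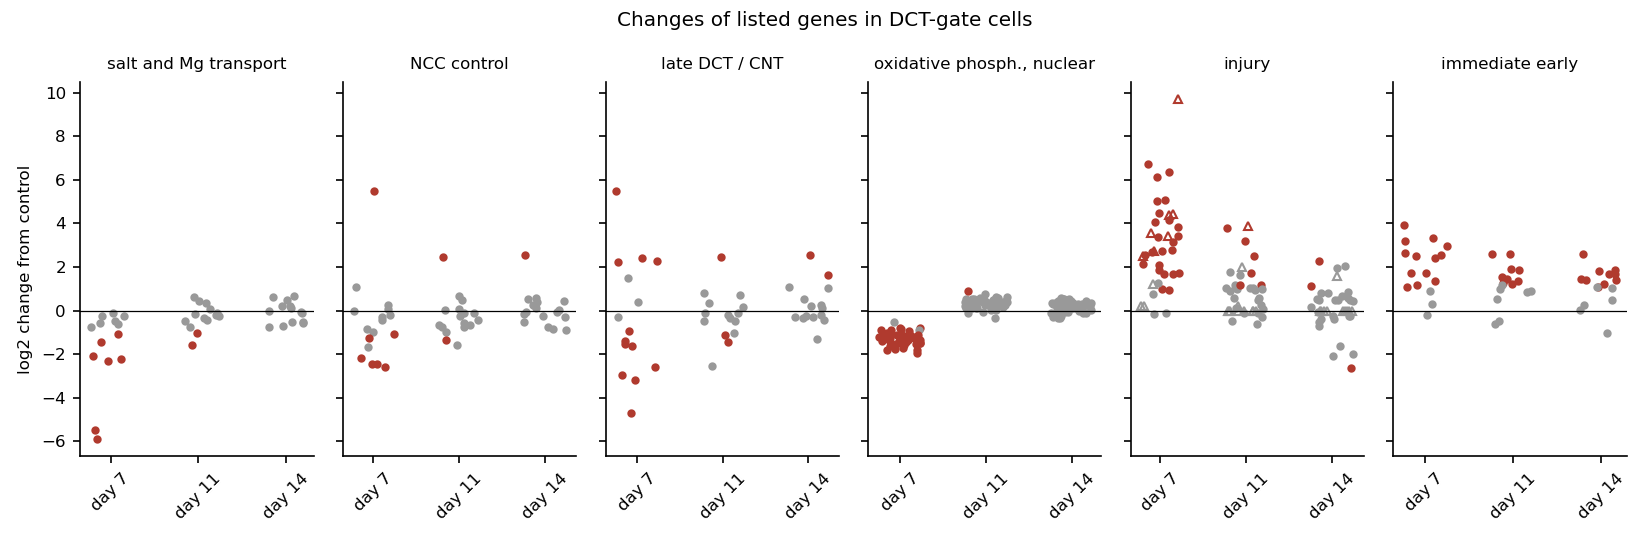
Log2 change from control of each tested gene of 6 lists on days 7, 11 and 14, with called genes in red and the rest in grey. Open triangles mark genes at 0 in a group, drawn at the bound that a floor of 3 counts gives. On day 7, 31 of 38 injury genes rose and 47 of 49 nuclear genes of oxidative phosphorylation fell.

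On day 4, Lcn2 was found more often in the members that lacked Pvalb, and Egf in those that had it. Of 137 members, 39 had a Pvalb UMI. Of these, 84.6% (exact 95% interval 69.5 to 94.1) had Egf and 25.6% (13.0 to 42.1) had Lcn2, whereas of the 98 without Pvalb 15.3% (8.83 to 24.0) had Egf and 71.4% (61.4 to 80.1) had Lcn2. Of the 3514 day 4 cells without Slc12a3 and the excluded genes, 21.4% had Lcn2 (median 1690 UMIs), close to the share of members with Pvalb. The Egf difference was also seen in the control and on days 11 and 14, though few control and day 11 members lacked Pvalb. Egf was found in 95.2% of 248 control members with Pvalb and in 2 of 6 without. Tmem52b was found in 2 of those 6. In the day 11 libraries Egf was found in 86.5% and 35% (7 of 20), and in 75.6% and 30% (3 of 10). In those of day 14 it was found in 90.7% and 60%, and in 96.6% and 33.3%. Lcn2 differed on day 11 as well, at 2.38% and 15% (3 of 20), and at 0% and 20% (2 of 10). In the day 4 members with and without Pvalb, Lcn2 summed to 460 and 3026 CPM, Clu to 3808 and 11265, and Spp1 to 8394 and 22094, while Tmem52b was found in 100% and 95.9%. Spp1 and Clu had a UMI in 94.9% or more of both kinds of members, and the intervals of Krt8, at 38.5% (23.4 to 55.4) and 55.1% (44.7 to 65.2), overlapped. Their median depths were 3331 and 3045 UMIs. Day 7 replicate 2 showed the same split with few cells: Lcn2 was found in 9.09% (0.230 to 41.3) of 11 members with Pvalb and in 59.4% (46.4 to 71.5) of 64 without, and Krt8 in 9.09% and 57.8%, at median depths of 1904 and 2541 UMIs. Day 7 replicate 1 and day 2 did not show it for Lcn2. There Lcn2 was found in 2 of 2 and 3 of 3 members with Pvalb, against 83.3% of 30 and 81.5% of 54 without, and those with Pvalb were deeper (median 12962 against 2690.5 UMIs and 23106 against 4675.5). On day 1 Lcn2 was in 92.3% of 13 members with Pvalb and 91.5% of 117 without. Day 4 and day 1 have 1 library each, the cells of a library are not replicates, and the intervals cover counting error only.

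**Figure D4:**
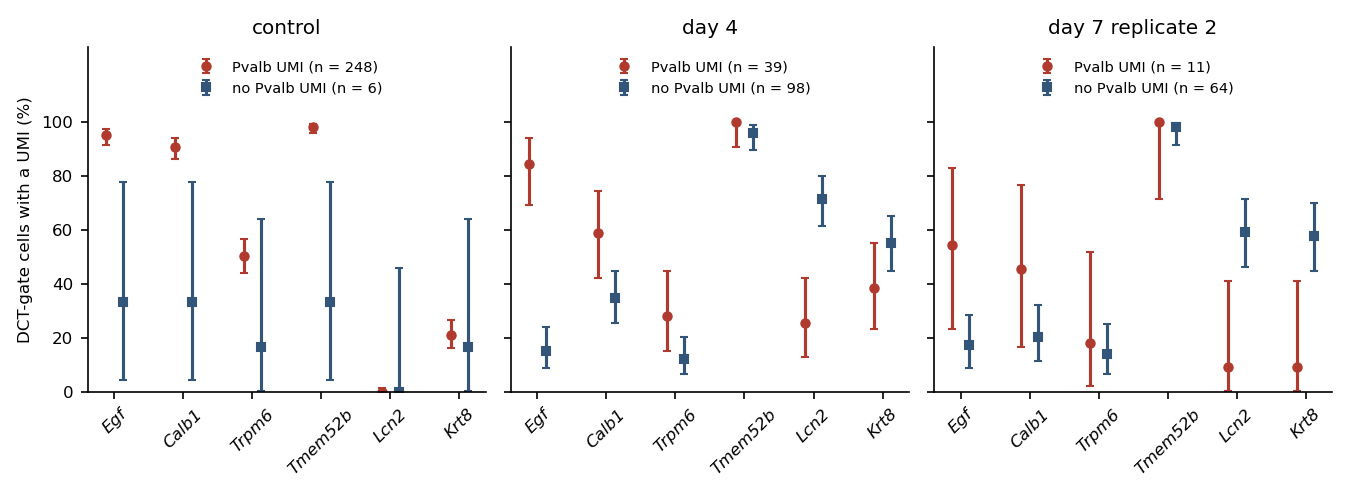
Percentage of members with at least 1 UMI of 6 genes, separately for members with a Pvalb UMI (circles) and without (squares), in the control, day 4 and day 7 replicate 2, with exact 95% binomial intervals. On day 4, Egf was found in 84.6% of members with Pvalb and 15.3% of those without, and Lcn2 in 25.6% and 71.4%.

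Immediate early genes, which answer stress and tissue handling within minutes, were higher on day 7 in 13 of 16, where 6.76% of all genes rose, with a median of 2.08. Of these genes 9 were above control on day 11 (3 without day 11 replicate 2) and 10 on day 14 (4 without day 14 replicate 1, and 1 by DESeq2's Wald test), where 1.89% and 1.42% of all genes were higher. Egr1 was 74.6 in the control, 367, 268 and 429.7 on days 1, 2 and 4, then 905 and 640.2 (day 7), 152 and 209 (day 11) and 175 and 227 (day 14). Every injury library was above the control, and the day 7 change was 3.35 ± 0.33, adjusted p = 8.4e-08. Ier2 was at 66.1 in the control and at 201 and 220 on day 14 (1.67 ± 0.28, adjusted p = 0.0011), and Klf4, a zinc finger factor, rose from 7.10 to 142 and 91.8 on day 7 (3.94 ± 0.43, adjusted p = 4.4e-07). Of 13 heat shock genes 1 rose on day 7 and 3 fell, and the 1 that rose is near the 6.76% of all genes (8.86% fell). Hspb1, a small chaperone of actin, rose by 3.05 ± 0.36, adjusted p = 1.4e-06, and Hsph1 changed by -1.51 ± 0.32, adjusted p = 0.0016, though not without day 7 replicate 2 (-1.18, adjusted p = 0.063).

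Genes of oxidative phosphorylation fell together. Of 49 nuclear subunits 47 fell on day 7, where 8.86% of all genes did, with a median of -1.23, and 39 did with DESeq2's Wald test. Cox7c, a subunit of cytochrome oxidase, went from 2378 to 621 and 732 (-1.81 ± 0.26, adjusted p = 2.0e-05). Cox4i1, another, was 3821 in the control, 1575, 1380.3 and 2356 on days 1, 2 and 4, then 1033 and 1732 (day 7), 4484 and 3996 (day 11) and 5182 and 5071 (day 14). It changed by -1.46 ± 0.29, adjusted p = 0.00076. Atp5g1, of the ATP synthase ring, changed by -1.82 ± 0.28, adjusted p = 4.8e-05. All 13 genes of the mitochondrial genome fell, with a median of -1.78. All 49 nuclear genes were higher on day 11 and on day 14 than on day 7, where 12% and 12.3% of all genes were. Against the control Uqcrc1 alone was called, higher on day 11, and not without either day 11 library (adjusted p = 0.071 and 0.22).

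The mitochondrial share of a member's UMIs moved the same way. Its median was 35.1% in the control and 19.2%, 14.2% and 10.1% on days 1, 2 and 4. In the replicated days it was 3.62% and 7.55% (day 7), 23.5% and 18.5% (day 11) and 28.4% and 30.8% (day 14). This was not particular to members. The median over all cells of a library was 23.6% in the control and 3.64% and 4.32% on day 7, and that of thick limb cells was 32.8%, then 4.84% and 5.50%. With cells limited to 25% mitochondrial UMIs 45 of the nuclear genes fell on day 7. Proximal tubule transcripts were lower at the same time, 10 of 13 tested against 8.86% of all genes, with a median of -4.98. Kap, an abundant proximal mRNA, was 4017 in the control, 149, 91 and 1570.1 on days 1, 2 and 4, then 4.74 and 44.7 (day 7), 2902 and 4249.5 (day 11) and 4980.3 and 4881 (day 14), and Lrp2, Miox and Slc34a1 were among those that fell. The part of free RNA and of neighbouring cells in the fall of the shared genes was not tested.

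Interferon and antigen presentation genes rose on day 7 in 11 of 17 (6 by DESeq2's Wald test), where 6.76% of all genes rose, with a median of 2.64. H2-K1, a class I heavy chain, was 66.8 in the control, 403, 460.1 and 864 on days 1, 2 and 4, then 625 and 422 (day 7), 109 and 84.5 (day 11) and 422 and 200.4 (day 14). Its day 7 change was 2.95 ± 0.39, adjusted p = 6.6e-06. B2m, the class I light chain, was 197 in the control, 632, 844 and 1551 on days 1, 2 and 4, then 1070.5 and 667 (day 7), 297 and 206 (day 11) and 880.1 and 417 (day 14), a day 7 change of 2.12 ± 0.38, adjusted p = 0.00025. Both were higher again on day 14 than on day 11, where 1.46% of all genes rose and 2.9% fell, by 1.70 and 1.38 (adjusted p = 0.002 and 0.0068). The day 14 libraries stood apart, at 422 and 200 for H2-K1 and at 880 and 417 for B2m. Neither gene was called without day 14 replicate 1 (adjusted p = 0.13 and 0.38) or without day 11 replicate 2 (0.082 and 0.19). The day 2 library alone held Ifit1 at 676 and Isg15 at 699, against 0 and 0.710 in the control. The rise of this list was not particular to members. Its sum on day 2 was 5194 CPM in members, 9448 in thick limb cells and 11143 in principal cells, against 350, 470 and 811 in the control. From the lowest day 11 to the lowest day 14 library it went from 566 to 1008, from 624 to 1323 and from 1152 to 2780 CPM. Of 9 tested macrophage markers 7 rose on day 7, against the same 6.76% of all genes, and 2 did with cells limited to 25% mitochondrial UMIs, 3 without day 7 replicate 1 and 2 by DESeq2's Wald test. C1qa, C1qb, C1qc, Lyz2 and Tyrobp, among the 7, were at 0 in the control and could not fall. The rise was not particular to members. The markers summed to 986 CPM in members, 1083 in thick limb cells and 1018 in principal cells of day 7 replicate 1. In the control the sums were 9.21, 5.97 and 2.93 CPM. Lyz2 was at 289 and 114 on day 7 and 0 in the control, and Cd74, an antigen presentation gene of the interferon list, at 52.1 in both and 0. The part of macrophage transcripts in the rise of the shared genes was not tested.

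By day 14, 119 genes were higher and 100 lower than control, and 2 of 38 injury genes were higher, where 1.42% of all genes were. Cryab, a small heat shock protein, was at 11.4 in the control and at 51.2 and 59.7 on day 14 (2.26 ± 0.42, adjusted p = 0.0027). With cells that also lacked Lrp2, Slc34a1, Umod, C1qa and C1qb its change turned to -0.90 (adjusted p = 0.79). Lgals3 was higher by 1.12 ± 0.30, adjusted p = 0.045, which did not hold without either day 14 library (adjusted p = 0.079 and 0.45), and Sox9 was lower, at -2.65 ± 0.60, adjusted p = 0.015 (0.076 without day 14 replicate 1). Members of both day 14 libraries stood apart from those of day 11 and control in other genes. Gstt1, a glutathione transferase, was 32.7 in the control, 94.9, 282 and 347 on days 1, 2 and 4, then 90 and 278 (day 7), 33.7 and 57.2 (day 11) and 283 and 321 (day 14). Its day 14 change was 3.20 ± 0.41, adjusted p = 2.9e-05. Scg5, a chaperone of the secretory pathway, rose from 44.0 to 205 and 240 (2.33 ± 0.29, adjusted p = 2.1e-05). Cwc22, a splicing factor, was 14.9 in the control, 173, 127 and 134 on days 1, 2 and 4, then 388 and 134 (day 7), 22.4 and 12.4 (day 11) and 228 and 149 (day 14). It rose by 3.65 ± 0.49, adjusted p = 4.2e-05 on day 14. Abca13, a lipid transporter, was 295 in the control, 2.16, 3.57 and 21 on days 1, 2 and 4, then 0 and 14.9 (day 7), 174 and 114 (day 11) and 24.2 and 18.6 (day 14). Both day 14 libraries were below both day 11 libraries (-2.71 ± 0.32, adjusted p = 5.7e-05). The antibody genes Igha and Igkc, which plasma cells express, were at 776 and 604 in the control and at 6.47 or less in each other library. The labels name no animal, strain or sex, so for these genes a difference between animals cannot be told apart from one between days. The 4 haemoglobin genes, which mark red blood cells, rose against control on days 11 and 14, with summed levels of 4525 and 492 CPM on day 11 and 1104 and 1408 CPM on day 14 against 1.73.

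The neighbouring segment, taken with the mirrored rule (at least 2 UMIs of Slc12a1, none of Slc12a3 and the other excluded genes, 3477 thick limb cells), shows which genes set the members apart. Since the gates chose the cells, the differences are a description: 1725 of 7959 genes (21.7%) differed in a fit with the library as a block. Pvalb was higher in members by 7.25 on the log2 scale, Calb1 by 6.87, Emx1 by 5.67, Lhx1 by 5.19, Klhl3 by 2.91 and Wnk1 by 2.77, each in 10 of 10 libraries. Pgam2, a muscle form of phosphoglycerate mutase, was higher by 5.93, and Ptgfr, the prostaglandin F receptor, by 4.60. The thick limb claudins Cldn10 and Cldn16 were lower, at -5.41 and -4.55. Of the nuclear genes of oxidative phosphorylation 37 of 49 were higher in members, where 10.7% of all genes were, and none was lower, and all 13 of the mitochondrial genome were higher. As sums this did not hold in every library. The nuclear sum was 27343 CPM in members and 28332 in thick limb cells on day 1, and 33137 and 33953 on day 2. In the control it was 61174 and 51060, and on day 4 50983 and 40407. The mitochondrial sum was 32470 and 34593.5 CPM in day 7 replicate 1. Against the principal cell gate (at least 2 UMIs of Aqp2, 2649 cells) 2236 of 7107 genes (31.5%) differed, with Egf at 6.20, Ppp1r1a at 5.49 and Umod at 4.15, and Aqp3 at -7.02, Avpr2, the vasopressin receptor, at -6.27 and Hsd11b2 at -5.19.

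Whether members changed more or less than thick limb cells was tested as the difference between both changes from control. On day 7, 194 of 11490 genes (1.69%) had such a difference, 0.609% higher and 1.08% lower in members, on day 11 it was 50 (0.435%, 0.252% higher and 0.183% lower) and on day 14 69 (0.601%, 0.366% higher and 0.235% lower). The day 11 number was 32 and 11 without day 11 replicate 1 and 2. The day 14 number was 33 without day 14 replicate 1 and 109 and 108 without day 7 replicate 1 and 2. The day 7 number was 124 without day 7 replicate 2. Clu rose in both, from 1089 to 13499.7 and 7611 scaled CPM in members and from 41.1 to 4332 and 2412 in thick limb cells, and the difference of its log2 changes was -3.08. Defb1, an antimicrobial peptide of the distal tubule (chr8:21776599-21795185, plus strand), fell from 6891 to 1061 and 847 in members and stood at 346, and then 775 and 1048, in thick limb cells, a difference of -4.27. S100g fell in members and stood at 305, and then 251 and 187, in thick limb cells, a difference of -2.98. Hsd11b2 rose more in members, from 20.7 to 1080 and 691, than in thick limb cells, from 30.7 to 264 and 133, with a difference of 2.78. Cldn16 was at 216 in the thick limb control and at 201 and 313 on day 7, so its difference of 5.78 came from the members, which went from 0.767 to 90.0 and 41.0. Lcn2 went from 4.46 to 903 and 1224 in thick limb cells and from 0 to 2336 and 1334 in members, a difference of 6.02 that depends on the control value of 0 and was lost without day 7 replicate 1 (5.48, adjusted p = 0.057). Egf fell in both, from 5715 to 23.7 and 136 in members and from 6571 to 81.6 and 427 in thick limb cells. Its difference of -1.47 and that of Calb1, -2.26, were called, but not without day 7 replicate 2 (-1.57 and -2.88, adjusted p = 0.24 and 0.19).

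**Figure D5:**
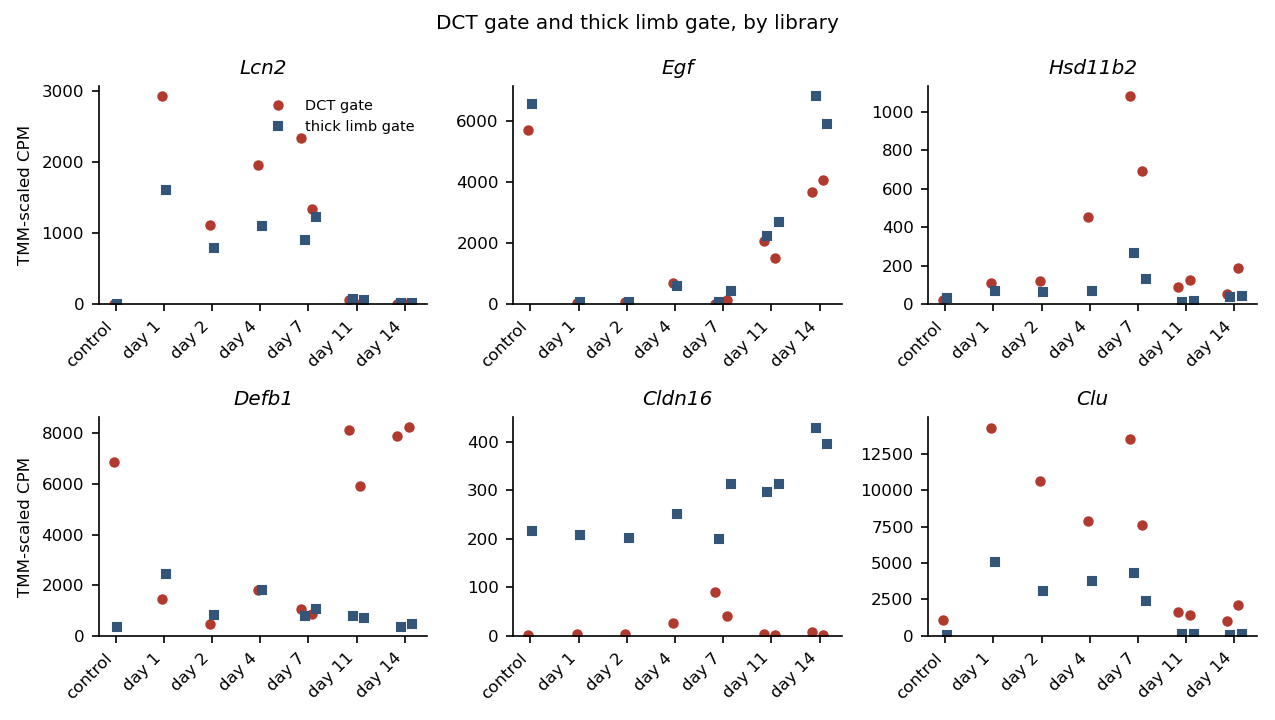
Scaled CPM of 6 genes in members (circles) and in thick limb cells (squares), 1 point per library, on linear axes that start at 0, by day of the injury course. Hsd11b2 reached 1080 in members and 264 in thick limb cells on day 7, while Cldn16 stayed at 201 or more in thick limb cells and reached 90.0 in members.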

How the data were processed

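Single-cell suspensions of mouse kidney cortex were processed by Drop-seq, with 3′ ends sequenced after a modified Nextera XT preparation, per the labels' protocols. The deposited values are whole-number counts, with genes by symbol and cells by barcode in a table for each library, read here as UMI counts, and the submitters' processing notes name Bowtie2 2.2.7 and mm10. Strand setting and annotation are not given in the sources used here. The tables hold 64803 barcodes and from 7091848 to 31632205 UMIs per library, and both intervals and floors cover counting error only, since cells of 1 library share their source.

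Members were selected as described, their UMIs were summed per library (155190 to 1738111 UMIs), and the counts were tested with edgeR 4.0.16 in R 4.3.3 (filterByExpr, TMM, quasi-likelihood F test, 1 term per day, all 10 libraries, 3 residual degrees of freedom). The 5 genes of the rule were left out of the tests. Standard errors restate the test as the absolute log2 change over the square root of F. Gates of the thick limb and principal cells were fitted jointly with members with the library as a block. In the test of the difference between gates the spread was pooled across genes, and p-values there may be too small. A library needed 20 members to enter a test. Where shares were compared across depths, cells with fewer than 1000 UMIs were left out and the others were thinned to 1000 UMIs. For Pvalb and Calb1 this was done as an expected share. Scripts ran in Python 3.11.15 with numpy 2.4.6, scipy 1.17.1, pandas 2.3.3, matplotlib 3.10.9 and scanpy 1.11.5 (Scrublet), and were tested on simulated data.

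The members and the gene lists were chosen with earlier results of these data known. Named genes are up to 10 per direction with the largest change among called genes whose average log2 CPM reached 6 and whose groups did not overlap (5 per direction for the difference between gates), the tested genes of the 4 DCT lists, and up to 4 called genes of lowest p of each other list. Genes named beyond this rule, among them Krt8, Spp1, Clu, Havcr1, Cox4i1, Tmem52b and Sostdc1, were chosen after their values were seen. Alternatives were other thresholds on Slc12a3 and on mitochondrial UMIs, exclusion of cells with proximal, thick limb or macrophage transcripts, DESeq2 1.42.0, other filters and fits, and leaving out each library. Leaving out the control was possible only in comparisons without it. The control has no replicate. Some genes counted in the lists are not reported here by name.

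Replicate numbers were not taken to pair samples, since the labels tie them to no animal or batch. Upstream sequences came from RefSeq and gene positions from GENCODE for GRCm38.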

Additional observations from a re-analysis of the deposited data

Results flagged for a closer look

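Each value here is a difference on the log2 scale between 2 changes from control, that of the members minus that of the thick limb cells, and passed a test of that difference with edgeR's quasi-likelihood test over 11490 genes. A positive value means that the gene gained more, or lost less, in members. The control is 1 library, so all of them share its values.

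On day 7 the genes that gained more in members were Lcn2 (6.02), Cldn16 (5.78), Ehf (3.75), an epithelial ETS factor, Ahnak (3.49), a large scaffold protein, and Hsd11b2 (2.78). Those that gained less or lost more were Defb1 (-4.27), Clu (-3.08), S100g (-2.98), Scd2 (-2.94), a fatty acid desaturase, and Aebp1 (-2.77). Lcn2 was at 0 in control members, so its value depends on the fit and is no bound, and it was no longer called without day 7 replicate 1.

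On day 11 the positive differences were Hsd11b2 (3.3), Maf (1.80) and the proximal tubule metabolism genes Gatm (2.58), Ass1 (2.18) and Pck1 (1.69). Proximal markers summed to 5236 CPM in control members and to 14108.5 CPM in control thick limb cells. In the day 11 library with the lower sum they were at 4654 CPM in members and at 7422.5 CPM in thick limb cells. The part of proximal transcripts in these differences was not tested. The negative ones were Cwh43 (-1.75), Aebp1 (-1.70), Neat1 (-1.65), Tsc22d1 (-1.60) and Hspa1a (-1.55). Ass1, Pck1 and Aebp1 were not called without day 11 replicate 2, Cwh43 without day 11 replicate 1, and Hspa1a without either.

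On day 14 they were Pgam2 (2.44), Cryab (2.17), Gatm (2.04), Hsd11b2 (2.0) and Ass1 (1.87), and, in the other direction, Tpm1 (-1.63), a tropomyosin, Pamr1 (-1.60), Aebp1 (-1.50), Eva1b (-1.26) and S100a11 (-1.24). Hsd11b2 was not called without day 14 replicate 2, nor Pamr1, Eva1b and S100a11 without day 14 replicate 1. Pgam2 stood at 858 scaled CPM in control members and at 936 and 825 on day 14, against 30.7, 4.13 and 7.18 in thick limb cells.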

How the results depend on the processing

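Counts of called genes moved with the setting. Day 7 against control gave 738 with only the groups compared and 447 with DESeq2's Wald test, and all 447 were among the 1312. Day 11 against control gave 157 at 25% mitochondrial UMIs, 79 with cells that also lacked Lrp2, Slc34a1, Umod, C1qa and C1qb, 679 with at least 50 members per library, 780 with only the groups compared and 43 by DESeq2. Day 14 against control gave 484 at 1 Slc12a3 UMI, 62 at 25%, 47 with the stricter gate, 344 at 50 members, 863 with only the groups compared and 16 by DESeq2. Day 11 against day 7 gave 745 by DESeq2, and day 14 against day 7 2630 at 1 UMI and 636 by DESeq2. Day 14 against day 11 gave 754 at 1 UMI, 69 with the stricter gate, 551 at 50 members and 127 by DESeq2. The stricter gate left 5 and 17 day 7 members and gave no day 7 comparison, and a minimum of 10 members changed nothing. With DESeq2's size factors 68.3% of day 11 differences from the thick limb were higher in members (43 of 63) against 58.0% (29 of 50).

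The share of cells in the gate at 1 Slc12a3 UMI was 5.84%, 7.29%, 2.62%, 4.02%, 2.44%, 4.19% and 6.87% in the control and on days 1, 2, 4, 7, 11 and 14, so that day 1 turned to above the control. At 25% mitochondrial UMIs it was 1.67% in the control and 3.15%, 1.85%, 1.80% and 1.94% on days 1, 4, 11 and 14, so that days 1, 4 and 11 turned from below the control to above it. Thinned, it was 3.15%, 2.52%, 0.495%, 1.72% and 2.32% in the control and on days 1, 2, 4 and 11, and both day 14 libraries, at 4.43% and 3.16%, lay above the control. The stricter gate gave 0.652%, 0.561%, 0.220%, 0.312%, 0.234%, 0.551% and 0.481%, so that day 14 no longer stood above day 11. At 3 UMIs the control was at 3.80% and days 1, 2, 4, 11 and 14 at 2.41%, 1.03%, 1.62%, 2.16% and 3.74%. At 5 UMIs, an alternative chosen after seeing the data, the 7 values were 3.18%, 1.15%, 0.734%, 1.08%, 0.505%, 1.53% and 3.16%. At both thresholds the day 14 mean turned from above the control to below it.

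Leaving out 1 library gave 1023 to 1332 genes for day 7 against control, 74 (without day 11 replicate 2) to 692 (without day 7 replicate 2) for day 11, 86 to 352 for day 14, 1051 to 1743 for day 11 against day 7, 1086 to 1661 for day 14 against day 7 and 51 (without day 11 replicate 2) to 567 for day 14 against day 11. The ranges were 1299 to 1808 against the thick limb, 1898 to 2334 against principal cells, and 124 to 200, 11 to 68 and 33 to 109 for the differences between gates on days 7, 11 and 14. Gate shares were 0.884% to 1.46%, 2.44% to 2.70% and 3.59% to 4.83% on those days. The gain in members with Pvalb was 74.6 to 83.0 percentage points from day 7 to 11, 76.1 to 84.5 from day 7 to 14 and -1.53 to 4.42 from day 11 to 14, and that in Calb1 38.0 to 45.3, 52.0 to 59.2 and 11.1 to 16.8.

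Some directions turned. The Pvalb difference between days 11 and 14 was -1.18 at 1 UMI, -6.28 thinned and -1.53 without day 11 replicate 1. Under the stricter gate Cryab (-0.90) and Hsd11b2 (-0.30) were lower on day 14 than in the control, and Egf (0.17) higher. Pvalb on day 11 against control, not called, was -0.25 without day 11 replicate 1 and 0.0014 without day 11 replicate 2, and Tmem52b on day 7, not called, -0.027 with no filter on low counts. At 25% mitochondrial UMIs the haemoglobins Hba-a1 (-0.89), Hba-a2 (-0.19), Hbb-bs (-0.0091) and Hbb-bt (-0.047) were lower on day 14 than on day 7, and without day 11 replicate 2 Slc26a4 was higher on day 14 than on day 11 (4.58; -4.80 without day 14 replicate 1).

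Replicates with the same number did not deviate together (correlations 0.059, -0.022 and -0.012). In the libraries of days 7, 11 and 14, the replicate block gave 1554, 1426 and 259 genes for day 11 against 7, day 14 against 7 and day 14 against 11, against 1679, 1578 and 342 without it. The smallest library, day 7 replicate 1, has 32 members, and the median UMIs per member were lowest on day 11, at 2110.5 and 2130.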
